A study of Mus musculus with 6 samples.

Results

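The mRNAs of 10 matricellular and provisional matrix proteins of the infarct scar were followed in cardiac fibroblasts: Postn, Cthrc1, Tnc, Thbs1, Thbs2, Thbs4, Spp1, Sparc, Fn1 and Comp. The members were taken by gene symbol, and all 10 were found among the 34745 genes of the deposited table. RNA-seq had been done on 6 libraries, 3 labelled KO and 3 labelled WT, each from fibroblasts of the left ventricle on Day 7 after myocardial infarction (MI) of mice 8 to 10 weeks old. KO mice carried a CRISPR/Cas9 deletion of the part of Kdm5b that encodes the JmjC domain, in the whole animal rather than in fibroblasts alone, and WT mice were littermates. Both groups had MI, and neither a sham-operated nor an uninjured group was part of the series. The sources used here do not say how many mice went into a library, nor that the libraries came from separate animals, so p-values measure the spread between these libraries.

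Matricellular proteins are secreted into the extracellular matrix, where they bind cells, growth factors, proteases and collagen rather than bear load. Most are scarce in the healthy adult heart and are made again after infarction, when fibronectin and fibrin first fill the wound and activated fibroblasts then lay down collagen. Periostin (Postn) is the usual marker of the activated cardiac fibroblast. Many of these proteins signal through integrins, and several carry the arginine-glycine-aspartate (RGD) tripeptide that integrins recognise.

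That tripeptide was looked for in the coding sequence, because it is one sequence feature by which integrin ligands among the members differ. In the longest complete coding sequence of each gene in GENCODE M21 (GRCm38), an in-frame RGD was found in 6 of the 10 members, Thbs1, Thbs2, Thbs4, Spp1, Fn1 and Comp. It was not found in those of Postn, Cthrc1, Tnc or Sparc. Of all 21526 coding genes scanned the same way, 7.27% held one. Each stretch below is written 5′ to 3′ on the coding strand with 12 bases on either side of the RGD codons, which are in capitals, and is named by the codon of the arginine, counted from the start codon.
Thbs1 codon 927: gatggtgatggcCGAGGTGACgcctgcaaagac
Thbs2 codon 928: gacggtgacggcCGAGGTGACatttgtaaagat
Thbs4 codon 138: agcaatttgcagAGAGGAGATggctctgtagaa
Thbs4 codon 564: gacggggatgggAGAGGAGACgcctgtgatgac
Spp1 codon 145: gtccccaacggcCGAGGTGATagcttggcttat
Fn1 codon 1614: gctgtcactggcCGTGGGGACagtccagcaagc
Fn1 codon 2181: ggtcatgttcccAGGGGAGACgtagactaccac
Comp codon 365: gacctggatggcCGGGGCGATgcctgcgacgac
The Fn1 stretch at codon 1614 lies at chr1:71606734-71606766, that at codon 2181 at chr1:71597431-71597463, both on the minus strand, and the Spp1 stretch lies at chr5:104439469-104439501 on the plus strand. Those of Thbs4 lie at chr13:92776979-92777011 and chr13:92762776-92762808 on the minus strand and that of Comp at chr8:70377208-70377240 on the plus strand. The Thbs1 stretch is split between 2 exons within chr2:118122677-118122902 (plus strand), and the Thbs2 stretch between 2 exons within chr17:14671472-14673147 (minus strand). The RGD codons of Thbs1 and Thbs2 are identical.

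Promoter sequence was at hand for 6 of the 10 members, as 300-base RefSeq windows of GRCm38.p6 (9 windows, from 250 bases before to 50 after a start). The 250 bases before the start are shown for Postn, Tnc and Spp1. In the comparison described further on, Postn and Tnc were lower in the libraries labelled KO under TMM scaling but not under fibroblast marker scaling. Spp1 was lower under neither. The strand is that of the gene, and capitals mark TATAAA.
Postn upstream: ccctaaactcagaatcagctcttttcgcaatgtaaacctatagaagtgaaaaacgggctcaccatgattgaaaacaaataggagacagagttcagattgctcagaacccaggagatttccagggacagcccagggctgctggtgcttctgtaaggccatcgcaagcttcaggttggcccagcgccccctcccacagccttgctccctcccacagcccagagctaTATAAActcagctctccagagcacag
Tnc upstream: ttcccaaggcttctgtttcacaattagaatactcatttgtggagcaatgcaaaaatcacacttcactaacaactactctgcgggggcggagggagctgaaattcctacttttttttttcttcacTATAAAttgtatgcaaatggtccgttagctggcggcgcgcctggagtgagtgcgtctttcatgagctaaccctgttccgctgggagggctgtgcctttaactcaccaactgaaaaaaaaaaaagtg
Spp1 upstream: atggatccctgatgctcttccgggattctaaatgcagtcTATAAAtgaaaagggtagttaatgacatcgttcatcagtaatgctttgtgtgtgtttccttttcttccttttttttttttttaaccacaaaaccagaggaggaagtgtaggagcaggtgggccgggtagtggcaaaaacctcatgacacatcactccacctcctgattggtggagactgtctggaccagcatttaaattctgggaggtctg
These stretches lie at chr3:54360857-54361106 (plus strand), chr4:64047016-64047265 (minus strand) and chr5:104434861-104435110 (plus strand). Counted from the start, the letters TATAAA began at position -26 in Postn, at -126 in Tnc (-205 from its second start) and at -211 in Spp1. Thbs2 held them on the reverse strand, from -126 to -121. The other windows of Postn and Spp1, each from a second start, did not hold them. Only these exact letters were searched, and the other Tnc window also holds TATATAAG nearer its start. Searched on both strands, TATAAA was in 13.6% of all 32851 promoter windows of this length. The letters of an AP-1 site (TGANTCA, in 7.81% of all windows), a CRE (TGACGTCA, 1.79%) and a palindromic SMAD box (GTCTAGAC, 0.213%) were in no member's window, nor was a CArG box (1.63%). The TEAD letters GGAATG, in 14.7% of all windows, were found in the window of Thbs4 alone, as 2 overlapping matches on the reverse strand.

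Libraries held 12025403 to 15329427 counts, and the members made up 2.40 to 2.78% of these under the label KO and 3.25 to 3.37% under the label WT. Of 14084 genes tested with edgeR (KO against WT, adjusted p under 0.05), 12.5% fell and 17.7% rose. The table gives 1 count for the whole of Kdm5b and none for the deleted part, so the deletion itself was not checked here: its library-scaled level (CPM) was 98.1, 107 and 105 in KO-1 to KO-3 and 108, 129 and 123 in WT-1 to WT-3 (log2 difference -0.22 ± 0.07 SE, adjusted p = 0.0574). Fibroblast markers, a list chosen with earlier results of these data known, were all present, led by Col1a1 at 1654 to 2533 FPKM (fragments scaled to gene length and library size). The cardiomyocyte gene Myh6 was present too, at 29.9 to 43.1 FPKM.

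Of the 9 members that passed the filter on low counts, 7 were lower in the libraries labelled KO under TMM scaling, which assumes that most genes do not differ, and none was lower when libraries were scaled on fibroblast markers, where 0.277% of all genes tested were. None was higher under TMM scaling, where Thbs4 and Spp1 did not pass the test. All values below are under TMM scaling unless said otherwise. The 7 were Postn, Cthrc1, Tnc, Thbs1, Sparc, Fn1 and Thbs2. Their levels were 0.739 to 0.861 of those in the libraries labelled WT. The median log2 difference of the 9 was -0.36, beside -0.02 over all genes tested, and the 3 libraries of one label did not overlap those of the other for 7 of the 9 members and for 47.0% of all genes tested. In bulk RNA, fewer cells of a type and less RNA per cell cannot be told apart.

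**Figure D1:**
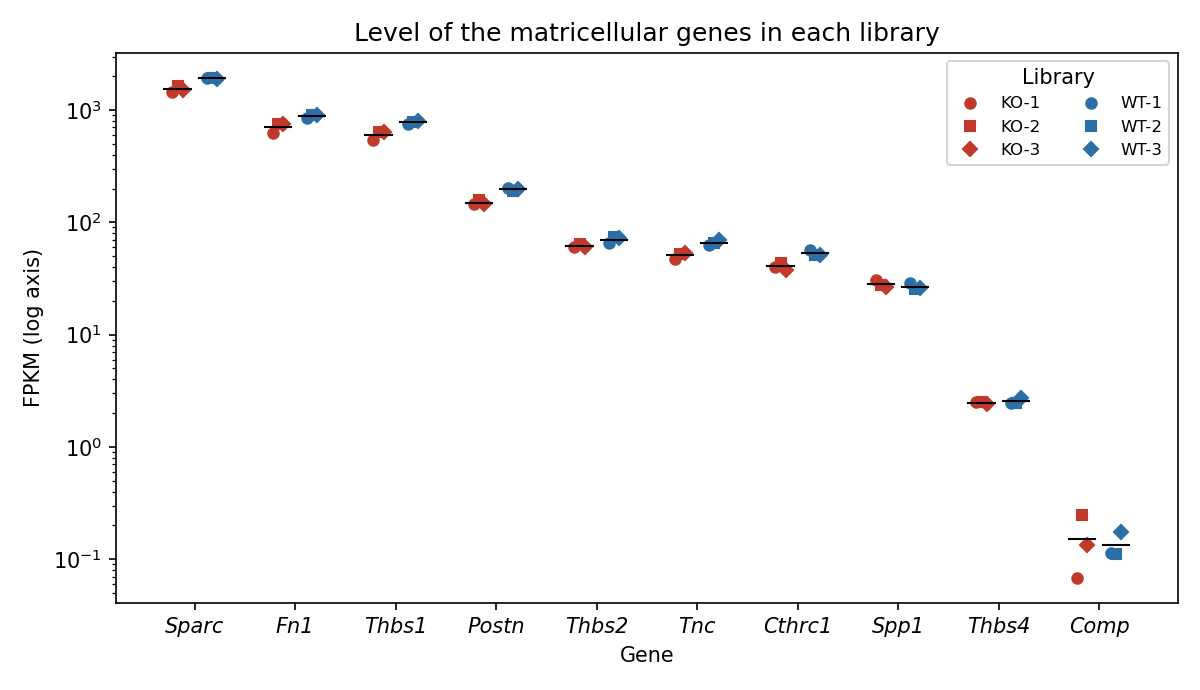
FPKM of each gene (vertical log axis) in the 3 libraries labelled KO (red) and the 3 labelled WT (blue), with the mean of each label as a line. Sparc is highest and Comp lowest, and the labels separate for every gene but Spp1, Thbs4 and Comp.

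Sparc and Fn1 were the most abundant members. Fibronectin (Fn1, chr1:71585520-71653200, minus strand) is the adhesive glycoprotein on which fibroblasts enter the wound. It measured 626, 746 and 758 FPKM in the libraries labelled KO and 855, 896 and 908 FPKM in those labelled WT. The labels did not overlap, and library KO-1 was the lowest of its label. Its log2 fold change was -0.35 ± 0.08 (SE, adjusted p = 0.00909, edgeR), and -0.26 without KO-1. Sparc (chr11:55394500-55420080, minus strand), a collagen-binding glycoprotein needed for collagen to mature into fibrils, measured 1440, 1641 and 1522 FPKM against 1931, 1931 and 1905 FPKM. The libraries labelled WT were nearly alike, with a coefficient of variation of 0.775%, and each of those labelled KO lay below them. The log2 fold change of Sparc was -0.36 ± 0.05 (SE, adjusted p = 0.00194).

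Postn, Cthrc1 and Tnc were each lower under TMM scaling, and none of them passed the test under fibroblast marker scaling. Postn (chr3:54361109-54391037, plus strand), which promotes collagen cross-linking and marks activated fibroblasts, measured 144, 158 and 146 FPKM in the libraries labelled KO and 204, 188 and 199 FPKM in those labelled WT. Its log2 fold change of -0.44 ± 0.05 (SE, adjusted p = 5.8e-04) came with labels that did not overlap. Cthrc1 (chr15:39076932-39087121, plus strand), a secreted glycoprotein of fibroblasts in injured tissue, measured 40.0, 43.8 and 38.0 FPKM against 56.2, 51.5 and 50.8 FPKM. No library of one label reached into the range of the other, and the log2 fold change was -0.41 ± 0.07 (SE, adjusted p = 0.00325). Tnc (tenascin C, chr4:63959785-64047015, minus strand), a hexameric glycoprotein that loosens cell adhesion at wound edges, measured 47.2, 52.6 and 53.1 FPKM against 63.2, 64.9 and 69.5 FPKM. Its log2 fold change was -0.40 ± 0.06 (SE, adjusted p = 0.00200). Tnc shares 67162 bases with the antisense transcript 8030451A03Rik, which had 25, 14 and 11 counts in KO-1 to KO-3 and 2, 0 and 0 in WT-1 to WT-3, against 4500 to 7853 counts for Tnc.

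Of the thrombospondins, both trimeric members were lower under TMM scaling, and neither was under fibroblast marker scaling, where the direction of Thbs2 turned (0.21, adjusted p = 0.0139). Under that scaling the median of all genes tested was 0.41, and 63.0% of them were higher. Thbs1 (chr2:118111876-118127133, plus strand), which can activate latent TGF-β and binds CD47 and CD36, measured 545, 636 and 632 FPKM in the libraries labelled KO and 745, 779 and 802 FPKM in those labelled WT. Its log2 fold change was -0.39 ± 0.07 (SE, adjusted p = 0.00329). Thbs2 (chr17:14665500-14694262, minus strand), the other trimeric thrombospondin, measured 60.1, 64.5 and 60.9 FPKM against 65.1, 73.3 and 71.9 FPKM. The gap between the labels was narrow, with KO-2 at 64.5 and WT-1 at 65.1 FPKM, and the log2 fold change was -0.22 ± 0.06 (SE, adjusted p = 0.0258). This call was lost without KO-1 (adjusted p = 0.0700), KO-3 (0.0831), WT-2 (0.0929) or WT-3 (0.0839), and with limma on log2(FPKM + 1) (0.0819) or log2(FPKM + 0.1) (0.120).

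The pentameric thrombospondins were scarce. Thbs4 (chr13:92751590-92794818, minus strand), found in stressed heart and in tendon, measured 2.50, 2.52 and 2.41 FPKM in the libraries labelled KO and 2.48, 2.45 and 2.73 FPKM in those labelled WT. The labels overlapped, and the log2 difference was -0.08, with a 95% confidence interval of -0.33 to 0.18 (adjusted p = 0.627). Comp (chr8:70373548-70382065, plus strand), a cartilage and tendon protein that helps collagen assemble, had 2, 8 and 5 counts against 4, 4 and 6 counts and did not pass the filter. Its 2 labels overlapped fully, and a difference was not detectable at these counts: tested without the filter, its log2 difference was 0.16 (adjusted p = 0.897). Among 7 tendon and cartilage genes that could be tested, 3 were lower, the cartilage regulator Sox9 (-0.47 ± 0.13 SE, adjusted p = 0.0235), the collagen-binding proteoglycan Fmod (-0.43 ± 0.12, adjusted p = 0.0286) and the fibrillar collagen Col11a1 (-0.37 ± 0.05, adjusted p = 0.00142), and none was higher. Under fibroblast marker scaling none of the 7 passed the test.

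Osteopontin (Spp1, chr5:104435118-104441050, plus strand), an acidic integrin ligand made by macrophages as well as fibroblasts, did not pass the test either. It measured 31.0, 27.7 and 26.8 FPKM in the libraries labelled KO and 28.9, 25.2 and 25.8 FPKM in those labelled WT. The labels overlapped and the log2 difference was 0.06, with a 95% confidence interval of -0.10 to 0.23 (adjusted p = 0.553). Spp1 also shares 1252 bases with Gm42793 on the same strand, which had 3 to 18 counts, against 1972 to 2239 for Spp1.

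**Figure D2:**
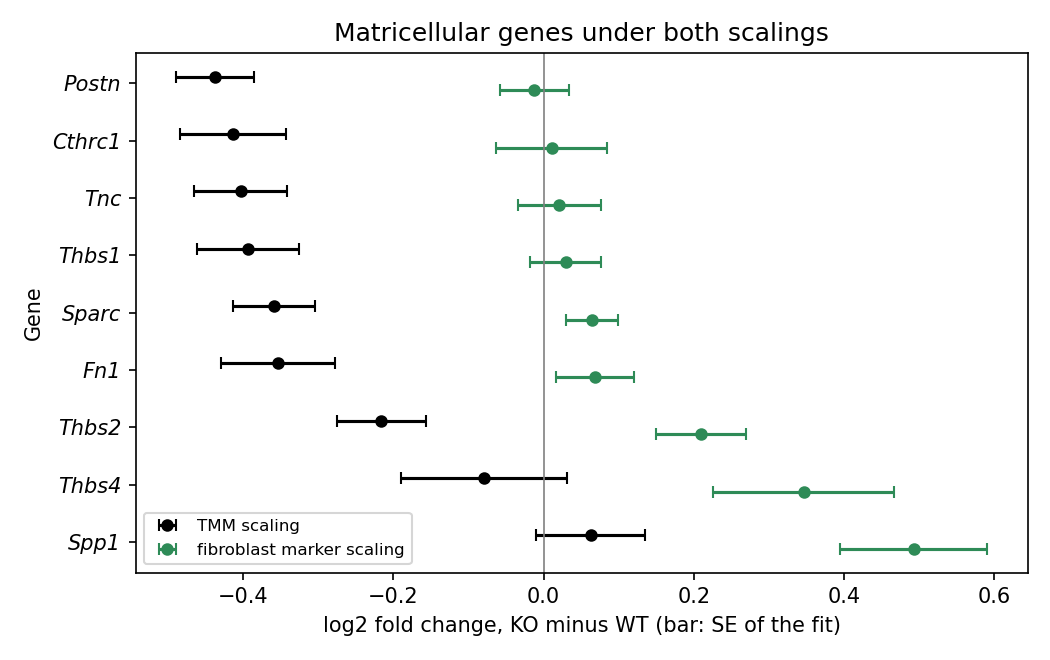
log2 fold change, KO minus WT, of the 9 members tested (points, with the SE of the fit as bars), with libraries scaled by TMM (black) and on the fibroblast markers (green). Under TMM scaling 8 of 9 points lie below 0, and under fibroblast marker scaling only Postn does, at -0.01.

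Members can also be compared within a library, where scaling between libraries plays no part. The log2 ratio of Thbs1 to Thbs2 FPKM was 3.18, 3.30 and 3.38 in KO-1 to KO-3 and 3.52, 3.41 and 3.48 in WT-1 to WT-3. All 3 of the first lay below all 3 of the second, a mean difference of -0.18 (two-sided exact permutation p = 0.1, adjusted over 4 ratios 0.2), and 0.1 is the smallest p that 3 against 3 libraries can give. The log2 ratio of Postn to Col1a1, the main collagen of the scar, was -3.52, -3.63 and -3.67 against -3.46, -3.75 and -3.63, a difference of 0.01 with overlapping labels (exact permutation p = 0.9). Thbs4 to Comp overlapped as well (difference -0.06, exact permutation p = 1), with the few counts of Comp setting its spread. The log2 ratio of Spp1 to the summed macrophage markers was -4.78, -4.96 and -4.95 against -5.22, -5.32 and -5.34, higher in all 3 libraries labelled KO by 0.39 (exact permutation p = 0.1, adjusted over 4 ratios 0.2), or by 0.24 from counts in place of FPKM. The lysozyme gene Lyz2 made up 76.4 to 83.9% of that sum, and the macrophage markers did not all move one way, as given next.

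Markers of fibroblasts were lower under TMM scaling, as most members were. All 13 fibroblast markers lay below 0 and 12 were lower past the test, with a median log2 difference of -0.42, and examples are the transcription factor Tcf21 (-0.48 ± 0.09 SE, adjusted p = 0.00503), the surface protein Thy1 (-0.47 ± 0.08, adjusted p = 0.00418) and Col1a1 (-0.44 ± 0.07, adjusted p = 0.00284). Of the 8 myofibroblast contractile genes 5 were lower (median -0.46), the tropomyosin Tpm2 (-0.58 ± 0.09, adjusted p = 0.00217), the smooth muscle actins Actg2 (-0.56 ± 0.15, adjusted p = 0.0264) and Acta2 (-0.37), Tagln (-0.45) and Cnn1 (-0.47). Markers of other cells lay near the same value: 4 of 7 mural cell markers were lower (median -0.42), with Pdgfrb at -0.42, Cspg4 at -0.43, Notch3 at -0.42 and Des at -0.42, while the channel subunit Abcc9 was higher at 0.84, and 6 of 10 cardiomyocyte markers (median -0.38), with Myh6 at -0.45 and Tnnt2 at -0.44. Of 12 macrophage markers 6 were lower and 2 higher (median -0.39): complement genes C1qb (-0.60) and C1qc (-0.49) fell, while the lysosomal Cd68 (1.38) and Gpnmb (0.71) rose. Relative to the fibroblast markers Cd68, Gpnmb and Abcc9 were higher, as were 63.0% of all genes, and none of the other genes in these lists passed the test. The fibroblast list itself is centred by that scaling.

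Endothelial markers went the other way. All 10 were higher in the libraries labelled KO (median log2 difference 2.73), led by the VEGF receptor Kdr (4.23 ± 0.27 SE, adjusted p = 2.3e-05) and the guidance receptor Robo4 (4.09 ± 0.14, adjusted p = 1.9e-06). Their summed level was 329, 228 and 266 FPKM in the libraries labelled KO and 43.5 to 45.1 FPKM in those labelled WT, so that none was without them. KO-1 had the highest endothelial sum and the lowest sum of the 10 members (2936 FPKM, beside 3372 and 3239 in the other two and 3951 to 4035 in those labelled WT). Sparc (1440 FPKM), Fn1 (626) and Thbs1 (545) made up most of the member sum in KO-1. Not every member was lowest there: Cthrc1 was lowest in KO-3 (38.0 FPKM), and Spp1 was highest in KO-1 (31.0). Of 5 platelet markers tested 3 were higher, the chemokine Pf4 (2.87), the integrin subunit Itga2b (0.93) and Gp1ba, which was listed at 0 in all 3 libraries labelled WT. The other two, Gp1bb (-1.18, adjusted p = 0.0723) and Ppbp (0.23, adjusted p = 0.677), did not pass the test, and Gp6 had no counts in any library. The part of these cell type differences in the members' result was not tested.

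**Figure D3:**
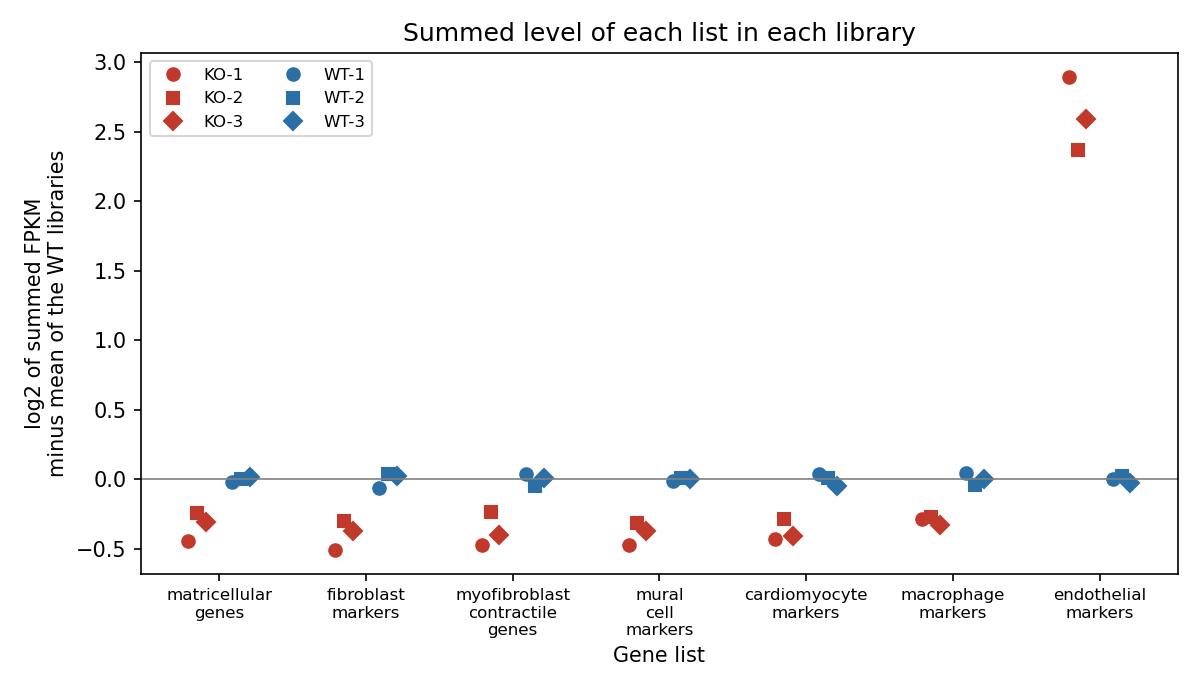
Summed FPKM of each list in each library (log2, minus the mean of the libraries labelled WT) for the 3 libraries labelled KO (red) and the 3 labelled WT (blue). The members, at -0.45 to -0.25 in the libraries labelled KO, lie beside the fibroblast, myofibroblast, mural, cardiomyocyte and macrophage lists. The endothelial list lies at 2.37 to 2.90.

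The members were also set against the fibroblast markers themselves. When libraries were scaled on these markers, the median of all genes shifted by 0.43 and the members by about as much, so that 63.0% of all genes tested were higher in the libraries labelled KO. Postn (-0.01), Cthrc1 (0.01), Tnc (0.02), Thbs1 (0.03), Sparc (0.06) and Fn1 (0.07) then did not pass the test, and all 6 had been lower before. Thbs2 (0.21 ± 0.06 SE, adjusted p = 0.0139), Thbs4 (0.35 ± 0.12, adjusted p = 0.0328) and Spp1 (0.49 ± 0.10, adjusted p = 0.00237) passed the test as higher relative to the markers, 3 of 9 members beside the 63.0% of all genes. No member was lower under this scaling, beside 0.277% of all genes tested.

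Other genes of the same kind and the members' partners were counted from lists. Of 17 other matricellular genes tested 10 were lower and 1 was higher, with a median log2 difference of -0.42. The elastic fibre protein Fbln5 (-0.51 ± 0.06 SE, adjusted p = 7.5e-04) and the CCN family member Wisp2 (-0.50 ± 0.05, adjusted p = 3.8e-04) fell most, and the 1 that rose was Nov, also of the CCN family, at 53.0, 32.8 and 39.1 FPKM against 2.29, 2.11 and 2.28 FPKM (4.19 ± 0.18, adjusted p = 5.1e-06). Spock1, Ibsp, Dmp1, Mepe and Vtn had no counts in any library. Relative to the fibroblast markers none of the 17 was lower and 3 were higher, beside 0.277% and 63.0% of all genes tested. Fbln5 was at -0.09, Wisp2 at -0.07 and Nov at 4.63.

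Of 26 receptors tested 12 were lower and 4 higher, with a median of -0.22. Integrin β3 (Itgb3), a partner of αv for osteopontin, fibronectin and thrombospondins, was at 34.6, 21.1 and 25.4 FPKM in the libraries labelled KO and 3.35, 3.04 and 3.13 FPKM in those labelled WT (3.05 ± 0.17 SE, adjusted p = 1.2e-05). Integrin β5 (Itgb5), another αv partner, went the other way, at 84.9, 92.4 and 84.7 against 116, 121 and 114 FPKM (-0.45 ± 0.05, adjusted p = 4.8e-04). The integrin subunit Itga3 was higher (0.96 ± 0.09, adjusted p = 1.8e-04), and so were the scavenger receptor Stab1 (0.65), which takes up Sparc, and the thrombospondin receptor Cd47 (0.26). The Wnt receptor Ror2 was lower (-0.59 ± 0.11, adjusted p = 0.00459). Relative to the fibroblast markers 11 receptors were higher and none was lower, beside 63.0% and 0.277% of all genes tested. Itgb3 was at 3.49 and Itgb5 at -0.03. Among 19 proteases, inhibitors and cross-linking enzymes tested, 10 were lower and 2 higher (median -0.38). The urokinase Plau rose, at 195, 92.8 and 115 FPKM against 8.99, 8.75 and 9.20 FPKM (3.87 ± 0.26, adjusted p = 3.4e-05), as did the aggrecanase Adamts4 (1.63 ± 0.13, adjusted p = 7.4e-05), while the macrophage elastase Mmp12 and Adamts7, which cleaves Comp, both fell (-0.46 ± 0.08 each, adjusted p = 0.00318 and 0.00395). Relative to the fibroblast markers 5 of the 19 were higher and none was lower, beside the same 63.0% and 0.277% of all genes. Plau was at 4.31 and Mmp12 at -0.03. KO-1 was the highest library for Nov, Itgb3, Plau and Adamts4.

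**Figure D4:**
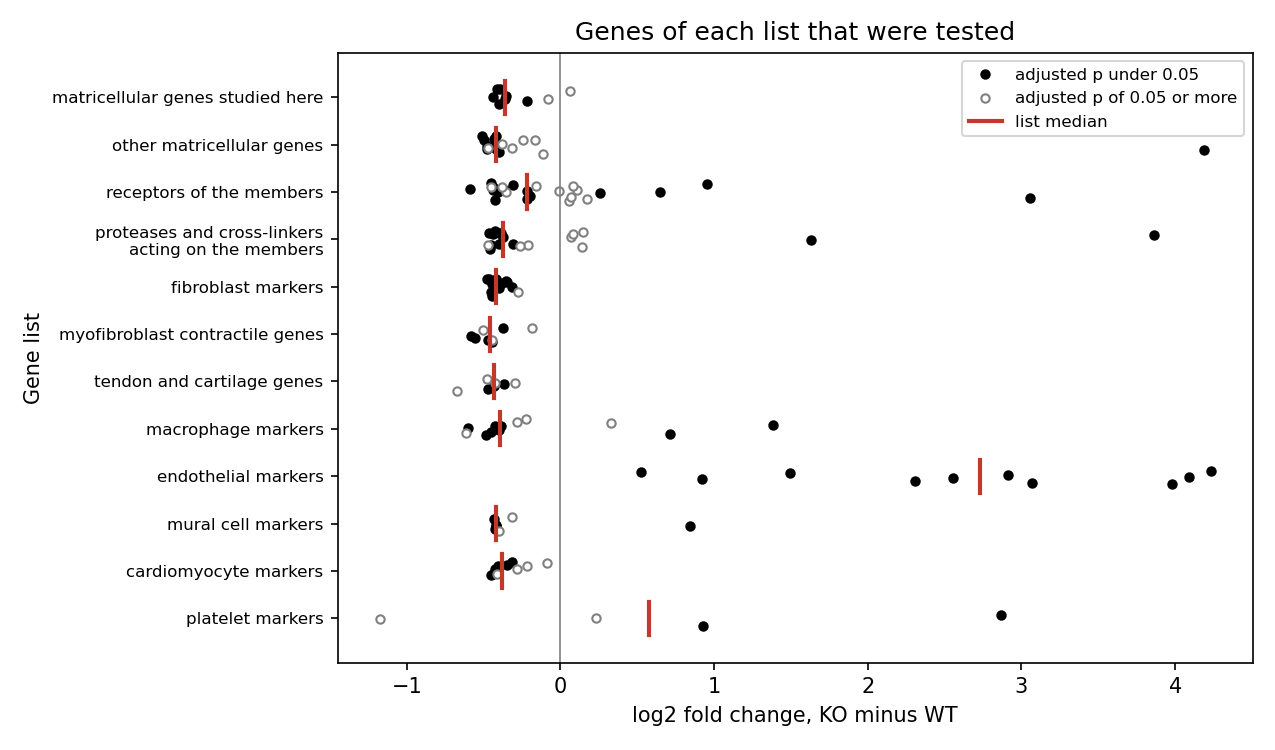
log2 fold change, KO minus WT, of every tested gene of each list (filled where the adjusted p was under 0.05, open otherwise) with the list median as a red line, leaving out 1 platelet gene whose libraries labelled WT held no counts. Libraries are scaled by TMM. Most lists centre near -0.4, where fibroblast marker scaling puts them near 0, and the endothelial genes all lie above 0.

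Levels were compared between genes per length, in FPKM. In the libraries labelled WT the order was Sparc (1923 ± 15 SD, n = 3), Fn1 (886 ± 28), Thbs1 (775 ± 29), Postn (197 ± 8.0), Thbs2 (70.1 ± 4.4), Tnc (65.9 ± 3.3), Cthrc1 (52.8 ± 3.0), Spp1 (26.6 ± 2.0), Thbs4 (2.55 ± 0.15) and Comp (0.133 ± 0.035). Of these neighbours only Thbs2 and Tnc had overlapping libraries. The order was the same in the libraries labelled KO, where Fn1 and Thbs1 overlapped instead. Sparc was the 13th, Fn1 the 33rd and Thbs1 the 39th of all genes by mean FPKM. Among the 350 genes tested with a mean of at least 100 FPKM, a set chosen after the values were seen, 36.0% were lower in the libraries labelled KO, and all 4 members of that set (Sparc, Fn1, Thbs1 and Postn) were.

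This order rests on the gene length behind the FPKM. Counts and FPKM of the table gave a length of 12088 bases for Postn, 5372 for Spp1 and 18077 for Fn1, whereas the longest coding transcript in GENCODE M21 has 3205, 1507 and 8315 bases. Per longest transcript, Postn in the libraries labelled WT came to 744 FPKM in place of 197, Spp1 to 94.9 in place of 26.6 and Fn1 to 1927 in place of 886. Sparc rose to 3697 and Cthrc1 to 103, while Thbs2 stayed at 70.4 and Comp at 0.133. Postn stayed below Thbs1 (863 FPKM), with a narrower gap, and Cthrc1 and Spp1 passed Tnc and Thbs2. In the libraries labelled WT those of Cthrc1 and Spp1 overlapped, as did those of Tnc and Thbs2. In the libraries labelled KO the order on this length was Spp1 (102 ± 7.9 SD, n = 3), Cthrc1 (79.2 ± 5.8), Thbs2 (62.1 ± 2.3) and Tnc (56.9 ± 3.7), with no overlap between neighbours. The fold change of a single gene does not depend on this length.

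**Figure D5:**
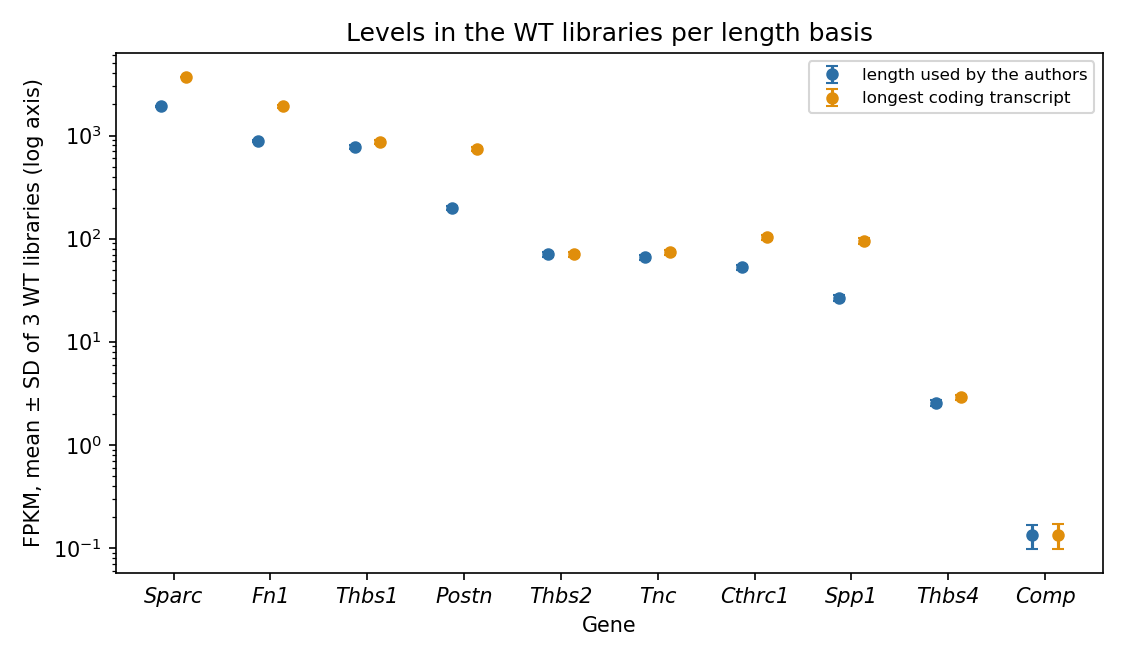
FPKM in the libraries labelled WT (vertical log axis, mean ± SD of 3 libraries) with the length the authors used (blue) and the longest coding transcript (orange). Postn and Spp1 move up most, from 197 to 744 and from 26.6 to 94.9 FPKM.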

How the data were processed

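Libraries were stranded and poly(A)-enriched, per the labels. HISAT2 was used by the authors for mapping (mm10), per the study's methods; they deposited one table with counts per gene and FPKM values for the 6 libraries; counting tool, annotation and strand setting are not given in the sources used here. The authors' FPKM values imply one length per gene. Counts were fitted with edgeR 4.0.16 (R 4.3.3; filterByExpr, TMM, quasi-likelihood test, KO against WT), with Benjamini-Hochberg adjustment over all 14084 genes tested, and the code was tested on simulated data. Ratios used exact permutation tests in scipy. Alternatives were other filters and scalings, DESeq2 1.42.0, limma 3.58.1 on log2 FPKM, a replicate block and leaving out each library. Fibroblast marker scaling set library factors from the median log2 deviation of 13 markers. Named genes were the 10 members, Kdm5b, Col1a1, overlapping genes and, per list, up to 2 rises and 2 falls past the test with a mean FPKM of at least 1; Lyz2 and genes that complete a count of 5 or fewer were named after their values were seen. Members and lists were chosen with earlier results of these data known. Loci are those of the table (mm10); overlaps were taken from them.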

Additional observations from a re-analysis of the deposited data

How the results depend on the processing

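Of 144 values of the 9 tested members under 16 alternatives, 120 kept direction and side of the threshold, and 18 of the other 24 came with fibroblast marker scaling, on all markers or, chosen after seeing the data, without collagens. Those values were, in that order, Postn -0.01 and -0.01, Cthrc1 0.011 and 0.0098, Tnc 0.021 and 0.020, Thbs1 0.029 and 0.028, Sparc 0.065 and 0.063, Fn1 0.069 and 0.068, Thbs2 0.21 and 0.21, Thbs4 0.35 and 0.34, and Spp1 0.49 and 0.49; both settings called 3 members, all higher. The factors rest on these markers, which lay at -0.42. Both called 35 and 36 other listed genes in place of 91, and 8906 and 8972 of all genes in place of 4248 (39 lower in each, in place of 1760). The other settings called 6 or 7 members, all lower. The last 6 values were the lost calls of Thbs2.

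Leaving out 1 library at a time gave 6 to 7 members, and log2 ratio differences of -0.54 to 0.38 for Thbs4 to Comp and -0.059 to 0.084 for Postn to Col1a1, whose signs turned, of -0.23 to -0.13 for Thbs1 to Thbs2 and of 0.34 to 0.43 for Spp1 to macrophage markers. With the replicate block 7 members, 89 other listed genes and 3907 of all genes were called; same-numbered libraries correlated at 0.0021, 0.0032 and 0.035, so the numbers were not taken to pair them. The filter on low counts kept Comp, with 2 to 8 counts a library, out of the main test.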
